A study of Mus musculus with 6 samples.

Results

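Cytosolic ribosomal proteins are the protein subunits of the ribosome that translates nuclear-encoded mRNAs. Their genes were taken by symbol from an RNA-seq table of the mouse mammary carcinoma line 4T1-LM3. Symbols of the form Rpl or Rps followed by a number, with an optional letter or digit, were used together with Rplp0, Rplp1, Rplp2 and Rpsa. The rule found 84 of 16426 genes in the table, 52 for the large subunit and 32 for the small subunit. A total of 80 were kept, 48 large and 32 small, because they reached 1 FPKM (fragments per kilobase of transcript, scaled to the library's mapped fragments) in 3 libraries. All 80 in fact exceeded that level in all 6 libraries, whereas Rpl39l, Rpl10l, Rpl3l and Rpl32l were below 1 FPKM in every library. In 3 samples, named Tdo2high MFs CM, the cells were given conditioned medium (CM) of matrix fibroblasts (MFs) described as Tdo2high. In the other 3, named Control CM, they were given control conditioned medium; which cells made it is not stated. Both groups are the same line, with no genotype difference stated; Tdo2 encodes tryptophan 2,3-dioxygenase, which starts the route from tryptophan to kynurenine. The comparison asked how the fibroblast medium changed mRNA levels in the carcinoma cells. Separate cultures are not stated either, and p-values therefore reflect the spread among these 6 libraries, which may be technical.

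Each ribosome joins a large and a small subunit, and most of their proteins are present in 1 copy per ribosome. Their mRNAs are among the most abundant in growing cells. In mammals most of them start with a C followed by a tract of pyrimidines, the 5′ terminal oligopyrimidine (TOP) motif, through which mTOR signalling and the RNA-binding protein Larp1 regulate their translation and stability. Some ribosomal proteins have paralogs, and most have many processed copies in the mammalian genome, so reads can be shared between loci.

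The TOP motif lies at the start of the mRNA, so a few start sites with and without a long pyrimidine run are printed here. Start sites came from the RefSeq promoter table on build GRCm38.p6, which matched 60 of the 80 genes by gene number. Each line gives 15 bases before and 15 bases from the annotated start, on the strand of the gene, with the longest unbroken run of C and T in capitals. The first 6 hold a run of at least 8 such letters, and the last 4 do not. The last 4 are shown because they are among the genes with the clearest differences between the media. Rpl14, among the first 6, is such a gene too (adjusted p = 0.0732 by limma, against 0.123 for Rpl27 and 0.134 for Rps3a1). The lines are examples and do not show that genes with clearer differences lack a run.
Rps10 (chr17:27635230-27635259, minus strand): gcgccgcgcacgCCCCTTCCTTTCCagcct
Rpl35 (chr2:39005117-39005146, minus strand): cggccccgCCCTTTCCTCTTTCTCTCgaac
Rpl15 (chr14:18270972-18271001, minus strand): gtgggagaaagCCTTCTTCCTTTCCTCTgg
Rpl14 (chr9:120571502-120571531, plus strand): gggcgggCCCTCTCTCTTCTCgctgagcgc
Rpl38 (chr11:114668565-114668594, plus strand): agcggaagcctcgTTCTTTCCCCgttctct
Rps6 (chr4:86857353-86857382, minus strand): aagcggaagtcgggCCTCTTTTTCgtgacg
Rpl23 (chr11:97782425-97782454, minus strand): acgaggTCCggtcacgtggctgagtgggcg
Rpl37a (chr1:72711245-72711274, plus strand): TTCCgctcgccggtctaaaaccgcgcatgc
Rps3a1 (chr3:86142654-86142683, minus strand): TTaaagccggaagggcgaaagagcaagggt
Rpl27 (chr11:101442230-101442259, plus strand): acgctctgTTCCTgtctgctgctcgtgctg

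Of the 60 ribosomal protein genes with an entry, 27 (45.0%) held a run of at least 8 letters C or T in this window of 30 bases in at least 1 annotated start, against 14.6% of the 8752 tested genes with an entry. The letters CGGAAG, which factors of the ETS family are known to read, were searched on both strands of the whole 300-base entry. They were in 41 of the 60 genes (68.3%) and in 37.9% of the 8752 tested genes. Where an annotated start is off by a few bases, the run can fall outside the window, and a missing run says nothing of the mRNA. The 27 genes with a run had a median log2 fold change of 0.01 (Tdo2high MFs CM over Control CM) and the 33 without had 0.02.

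Ribosomal protein mRNAs differed little between the media. They made up 16.1%, 15.9% and 16.1% of all FPKM in the Tdo2high MFs CM libraries 1, 2 and 3, against 15.6%, 16.4% and 15.7% in the Control CM libraries 1, 2 and 3. The mean share was 16.0% ± 0.101 with Tdo2high MFs CM and 15.9% ± 0.427 with Control CM (SD, n = 3 each), and the shares of the groups overlapped. Of the 80 genes, 2 rose and 0 fell by limma at an adjusted p under 0.05, a share of 2.5%. Over all 10804 genes tested, 7.41% were called, with 3.35% higher and 4.06% lower. The split of calls depended on the scaling, since 2 ribosomal protein genes rose and 7 fell by limma after quantile normalization, where 3.56% of all genes tested rose and 3.71% fell. It also depended on single libraries, with 0 genes called without Control CM replicate 1, Tdo2high MFs CM replicate 2 or Tdo2high MFs CM replicate 3, and 1 without Control CM replicate 3. Without adjustment, 13 of the 80 were higher and 2 lower at p under 0.05 by limma, against 9.68% higher and 14.1% lower over all genes. The fit used log2(FPKM + 1), and the median log2 fold change of the 80 genes was 0.01, beside -0.01 over all genes tested. In bulk RNA, fewer cells of a kind and less RNA per cell cannot be told apart, and FPKM does not show the amount of mRNA per cell.

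The differences of single genes were small and mostly tightly bounded. The log2 fold changes ran from -0.15 for Rps6 to 0.19 for Rps29, with an SD of 0.07 across the 80 genes, against an SD of 0.12 across all genes tested. The 95% interval lay within 1.2-fold in either direction for 73 of the 80 (91.2%), against 81.7% of all genes tested; that bound was chosen after the values were seen. The 7 genes with wider intervals were Rps29, Rpl37, Rps10, Rpl37a, Rpl30, Rpl38 and Rps6. No interval reached above 1.27-fold or below 0.793-fold. These comparisons with all genes tested took no account of level, and the 80 genes had a median of 810.2 FPKM. Whether other genes of like level are as steady was not tested. In 10 of the 80 genes (12.5%) all Tdo2high MFs CM libraries were above all Control CM libraries, against 11.6% of all genes tested. In 2 of the 80 (2.5%) they were all below, against 17.5% of all genes tested. In either direction 29.2% of all genes tested had groups that did not overlap.

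**Figure D1:**
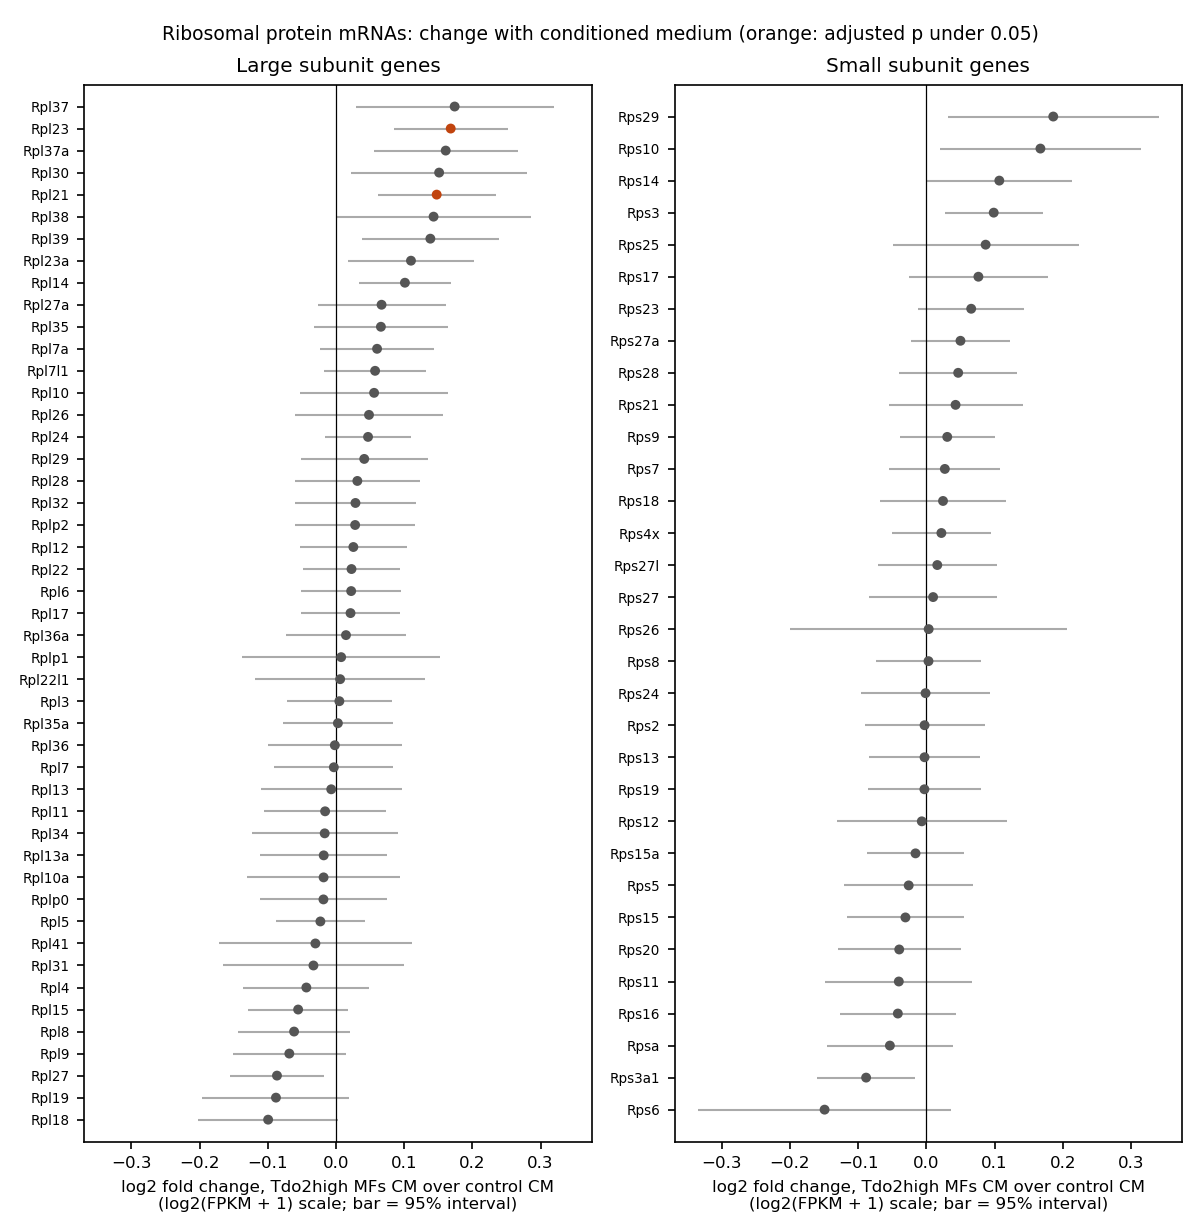
Log2 fold change of the kept ribosomal protein genes (x axis, Tdo2high MFs CM over Control CM, log2(FPKM + 1) scale) with its 95% interval from limma, for the large subunit (left, 1 gene not shown) and the small subunit (right). The 2 orange points, Rpl23 and Rpl21, had an adjusted p under 0.05; all points lie between -0.15 and 0.19.

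Both genes that passed encode large subunit proteins, and both calls depended on the settings. Rpl23 encodes uL14, a protein at the interface of the subunits that is also known to bind the p53 regulator MDM2. Its FPKM was 630.65, 640.71 and 682.66 with Tdo2high MFs CM, against 561.65, 586.55 and 589.82 with Control CM. The groups did not overlap, and the log2 fold change was 0.17 ± 0.04 (SE; adjusted p = 0.0256 by limma). The call of Rpl23 ended in 5 of 17 alternative settings. Among these were the fits without Control CM replicate 1, without Tdo2high MFs CM replicate 2 and without Tdo2high MFs CM replicate 3 (adjusted p = 0.0819, 0.0626 and 0.096 by limma).

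Rpl21 encodes eL21, another large subunit protein. It had 308.07, 339.21 and 329.11 FPKM with Tdo2high MFs CM, against 302.01, 292.96 and 285.66 with Control CM. Here too the groups did not overlap, but the lowest Tdo2high MFs CM library lay close to the highest Control CM library. The log2 fold change was 0.15 ± 0.04 (SE; adjusted p = 0.0475 by limma), and the call ended in 10 of 17 alternatives. Without 1 library it held only when Tdo2high MFs CM replicate 1 was left out (adjusted p = 0.0252 by limma), and the adjusted p ran up to 0.154 without Tdo2high MFs CM replicate 2. On GRCm38.p6, Rpl23 lies on chromosome 11 from 97777526 to 97782439 and Rpl21 on chromosome 5 from 146832890 to 146837032.

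Among the large subunit genes, the 4 highest log2 fold changes were those of Rpl37, Rpl23, Rpl37a and Rpl30. Rpl37a, a small zinc-binding protein, had 651.23, 640.51 and 692.11 FPKM with Tdo2high MFs CM, against 561.41, 632.9 and 581.17 with Control CM. The groups stood apart, but Control CM replicate 2 came close to the Tdo2high MFs CM libraries. Rpl37a had a log2 fold change of 0.16 (adjusted p = 0.0697 by limma), and when Control CM replicate 2 was left out it passed, at adjusted p = 0.0188 by limma. Rpl37, another zinc-binding protein, had 507.45, 485.86 and 481.87 FPKM with Tdo2high MFs CM, against 385.03, 476.24 and 450.86 with Control CM. The lowest value was that of Control CM replicate 1, and without that library the log2 fold change of Rpl37 was 0.09, against 0.17 with all libraries (adjusted p = 0.141 by limma). Rpl30 had 969.79 ± 82.7 FPKM with Tdo2high MFs CM and 871.70 ± 39.6 with Control CM (SD, n = 3 each; adjusted p = 0.148 by limma).

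Among the lowest log2 fold changes of the large subunit were those of Rpl18, Rpl19 and Rpl27, between -0.10 and -0.09, and none of the 3 passed, although all 3 did after quantile normalization. Without Control CM replicate 2 the log2 fold change was -0.05 for Rpl18 and -0.03 for Rpl19. Rpl27 had 519.79, 508.65 and 513.42 FPKM with Tdo2high MFs CM, against 550.45, 558.65 and 528.63 with Control CM. Its groups did not overlap, at a log2 fold change of -0.09 (adjusted p = 0.123 by limma). Those of Rpl18 and Rpl19 overlapped, and the highest value of both was that of Control CM replicate 2.

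No small subunit gene passed the test. The 4 highest log2 fold changes were those of Rps29 (0.19), Rps10 (0.17), Rps14 (0.11) and Rps3 (0.10), at adjusted p = 0.14, 0.161, 0.21 and 0.097 by limma. Rps29, a zinc-binding protein of the head of the small subunit, had 378.59, 332.59 and 367.23 FPKM with Tdo2high MFs CM, against 280.18, 338.76 and 330.45 with Control CM. The groups overlapped, and Control CM replicate 1 was the low library. Rps10, also of the head, had 988.16, 949.48 and 997.01 FPKM with Tdo2high MFs CM, against 770.54, 954.68 and 897.67 with Control CM. Control CM replicate 1 was again the low one; without it the log2 fold change of Rps10 was 0.08 and that of Rps29 was 0.10.

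Of these 4 only Rps3, which lines the mRNA entry channel, had groups that did not overlap, with 632.54 ± 16.2 FPKM in Tdo2high MFs CM cells and 590.58 ± 13.6 FPKM in Control CM cells (SD, n = 3 each). The 4 lowest were Rps6, Rps3a1, Rpsa and Rps16, at log2 fold changes of -0.15, -0.09, -0.05 and -0.04. Without Control CM replicate 2 both Rpsa and Rps16 were at -0.01, and over the fits without 1 library Rps6 ran from -0.24 without Tdo2high MFs CM replicate 3 to -0.07 without Tdo2high MFs CM replicate 1. Rps3a1 encodes eS1, a protein of the platform of the small subunit. It had 924.33, 878.91 and 892.68 FPKM with Tdo2high MFs CM, against 939.79, 966.87 and 959.18 with Control CM. The groups did not overlap (adjusted p = 0.134 by limma), and Rps3a1 passed after quantile normalization. Rpsa, which assembles into the small subunit and also serves as a laminin receptor, had 946.84 ± 12.3 and 983.57 ± 55.2 FPKM in Tdo2high MFs CM and Control CM cells (SD, n = 3 each).

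**Figure D2:**
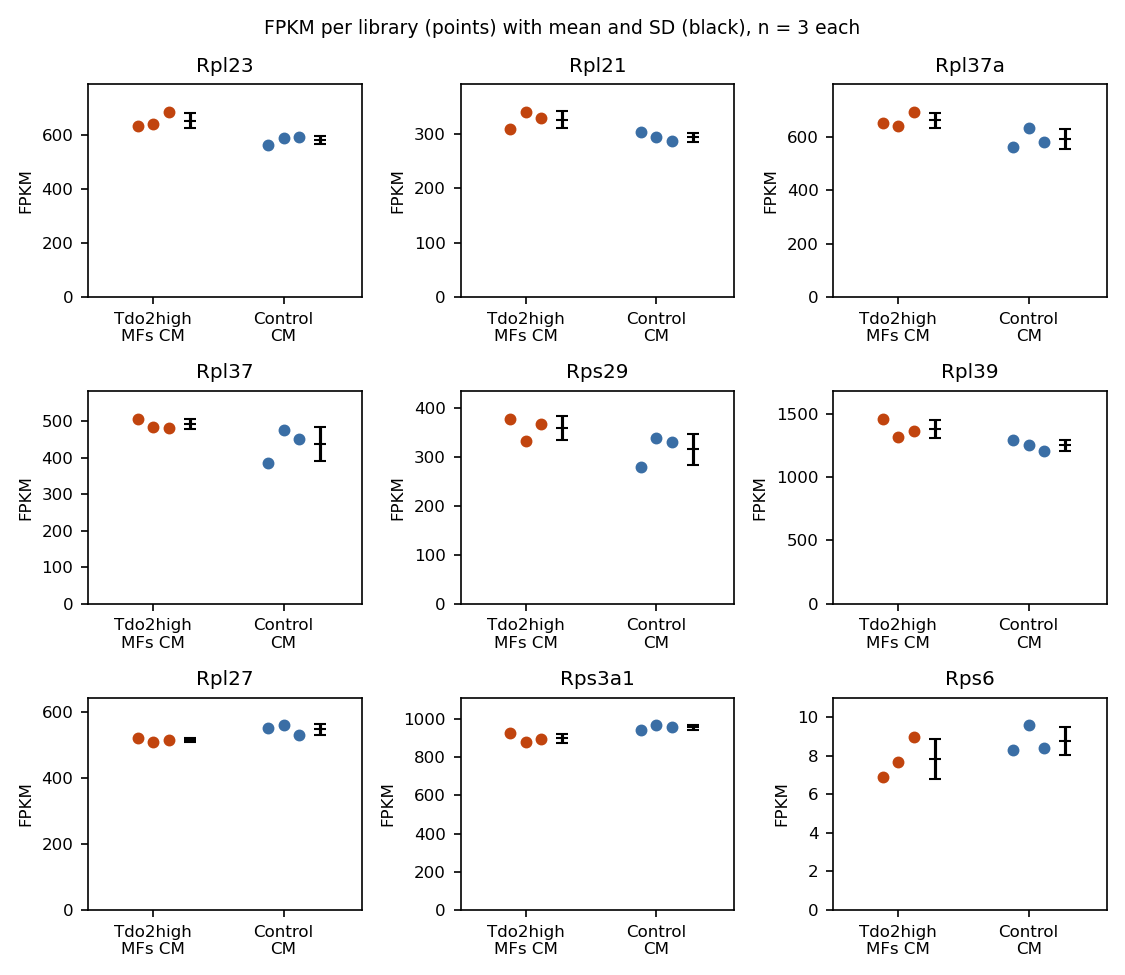
FPKM (y axis) of 9 ribosomal protein genes in the 3 Tdo2high MFs CM libraries (orange, left) and the 3 Control CM libraries (blue, right), with the mean and SD in black. Rpl23, Rpl21, Rpl37a, Rpl37 and Rpl39 were higher in every Tdo2high MFs CM library and Rpl27 and Rps3a1 lower; Rps29 and Rps6 overlapped.

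The difference between the subunits was alike in both media, within the spread of the libraries. The median log2 fold change was 0.02 for the 48 large subunit genes and 0.01 for the 32 small subunit genes. The 2 calls were both in the large subunit, but with so few calls no difference between the subunits can be read from them. The mean log2(FPKM + 1) of the large subunit genes minus that of the small subunit genes was 0.28, 0.25 and 0.26 in the Tdo2high MFs CM libraries, against 0.27, 0.25 and 0.25 in the Control CM libraries. The mean was 0.27 ± 0.02 with Tdo2high MFs CM and 0.26 ± 0.01 with Control CM (SD, n = 3 each), and the values overlapped. The median level was 770.7 FPKM in the large and 872.3 FPKM in the small subunit, the opposite order to the means. Rps6, at a mean of 8.29 FPKM over all libraries, lowers the small subunit mean, and its level is uncertain. The difference between the subunits without Rps6 was not computed.

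No gene was called in the lists of ribosome parts and disease genes below, beside 7.41% called over all genes tested. With 2 to 18 genes each, such lists can be free of calls at that share. The called genes Rpl23 and Rpl21 are in none of them. Rplp0, Rplp1, Rplp2 and Rpl12 form the stalk and its base, which recruit elongation factors; their log2 fold changes lay between -0.02 and 0.03, and those of Rpl12 and Rplp1 were -0.03 and -0.01 after quantile normalization. Rplp1 spread widely within groups, with 1623.24 ± 107 FPKM in Tdo2high MFs CM cells and 1616.49 ± 143 FPKM in Control CM cells (SD, n = 3 each). Rpl12 had 2089 ± 29.4 FPKM in Tdo2high MFs CM cells and 2053 ± 36.6 FPKM in Control CM cells (SD, n = 3 each). Rplp0 had 1639 ± 13.5 FPKM in Tdo2high MFs CM cells and 1661 ± 85.4 FPKM in Control CM cells (SD, n = 3 each). Rpl5 and Rpl11 join the 5S rRNA particle, which can bind MDM2 when ribosome assembly stalls, and both had a log2 fold change of -0.02. Rpl5 was the steadiest gene of all 80, with a coefficient of variation of 1.32% over the 6 libraries. The 7 proteins at the exit of the peptide tunnel had a median log2 fold change of 0.05, with Rpl39 at 0.14 (adjusted p = 0.0958 by limma) and Rpl19 at -0.09. The 14 head proteins of the small subunit had a median of 0.04. A list of 18 ribosomal protein genes among those mutated in human Diamond-Blackfan anaemia, an inherited failure of red cell production, had a median of 0.0031.

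Levels differed far more between genes than between media. Of the 80 genes, 24 averaged above 1000 FPKM over the 6 libraries, 52 lay between 100 and 1000, and 4 were under 100. The most abundant was Rpl23a, with 2779.41, 2766.93 and 2664.8 FPKM in Tdo2high MFs CM cells, against 2472.81, 2495.4 and 2642.14 FPKM in Control CM cells. Next were Rpl10, Rpl12, Rpl41 and Rplp0. Rpl23a did not overlap between groups, by a narrow gap, and did not pass (log2 fold change 0.11, adjusted p = 0.142 by limma); after quantile normalization its direction turned, to -0.02. The log2 fold change of Rpl10 turned likewise, with 0.06 on the main scale (adjusted p = 0.528 by limma) and -0.15 after quantile normalization, where it passed as lower (adjusted p = 0.0221 by limma). The 4 genes under 100 FPKM were Rps15a, the paralogs Rpl22l1 and Rpl7l1, and Rps6.

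Rps6, the substrate of S6 kinase and a required part of the small subunit, had the lowest level of all. It was at 6.88, 7.65 and 8.95 FPKM with Tdo2high MFs CM, against 8.31, 9.58 and 8.39 with Control CM. The groups overlapped, and the median over all 80 genes was 810.2 FPKM. Rps15a averaged 54.91 ± 0.470 FPKM in Tdo2high MFs CM cells and 55.55 ± 1.99 FPKM in Control CM cells (SD, n = 3 each). Whether reads of these genes were given to near-identical copies was not tested, so their levels are uncertain.

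In most paralog pairs the share of each partner overlapped between the media. Rpl22l1 made up 17.8%, 17.5% and 18.4% of the FPKM of Rpl22 and Rpl22l1 together in the Tdo2high MFs CM libraries, against 16.8%, 17.4% and 20.1% in the Control CM libraries. Rps27l, known in mouse and human cells as a p53 target, made up 17.6%, 17.4% and 17.1% of its pair with Rps27 in the Tdo2high MFs CM libraries, against 15.5%, 17.7% and 18.8% in the Control CM libraries. In both pairs the groups overlapped and the Control CM libraries spread more widely. Rpl7l1 was 3.96% ± 0.123 of its pair with Rpl7 in Tdo2high MFs CM cells and 3.80% ± 0.217 in Control CM cells (SD, n = 3 each).

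Paralogs known from muscle and testis were near 0. Rpl3l, a muscle paralog of Rpl3, was listed at 0.18, 0.27 and 0.17 FPKM with Tdo2high MFs CM, against 0.17, 0.22 and 0.17 with Control CM. Rpl10l, a testis paralog of Rpl10, did not exceed 0.11 FPKM, and Rpl39l was listed at 0 in all but Control CM replicate 2, which had 0.1 FPKM. Rpl36al, a paralog of Rpl36a whose symbol falls outside the rule, was the one paralog of the 7 pairs whose groups stood apart. It made up 25%, 24.4% and 24.5% of the pair in the Tdo2high MFs CM libraries, against 25.8%, 25.7% and 26.5% in the Control CM libraries. For Rpl36al itself the log2 fold change was -0.09 (adjusted p = 0.0875 by limma). Groups that do not overlap were common in the levels of single genes, at 29.2% of all genes tested. No change of this pair is therefore read from them.

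Part of the FPKM was listed under retrocopies with their own rows. Whether those reads came from the genes they copy was not tested. Rpl31-ps12, named as a pseudogene of Rpl31, was listed at 857.34, 887.98 and 894.93 FPKM with Tdo2high MFs CM, against 799.66, 817.08 and 838.3 with Control CM. Rpl31 itself was listed at 326.4, 276.06 and 296.62 FPKM with Tdo2high MFs CM, against 289.1, 325.68 and 304.14 with Control CM. The sum of both rows was 1183.74, 1164.04 and 1191.55 FPKM with Tdo2high MFs CM, against 1088.76, 1142.76 and 1142.44 with Control CM. The sum was thus higher in every Tdo2high MFs CM library, while Rpl31 alone overlapped. Rpl31-ps12 did not pass the test (adjusted p = 0.0859 by limma). Rpl37rt, a retrocopy of Rpl37, made up 5.33%, 4.56% and 4.8% of the sum of both rows in the Tdo2high MFs CM libraries, against 5.8%, 7.32% and 7.5% in the Control CM libraries. Rpl37rt itself overlapped, with 28.59, 23.23 and 24.3 FPKM in Tdo2high MFs CM cells, against 23.7, 37.6 and 36.56 FPKM in Control CM cells (adjusted p = 0.208 by limma). The summed level of Rpl37 and Rpl37rt overlapped, with 536.04, 509.09 and 506.17 FPKM in Tdo2high MFs CM cells and 408.73, 513.84 and 487.42 FPKM in Control CM cells. Rpl34-ps1 ranged from 3.81 to 13.34 FPKM with Tdo2high MFs CM, against 1.83 to 8.14 with Control CM, and overlapped. Rps27rt was listed at 0 in all 3 Tdo2high MFs CM libraries and in Control CM replicate 3, and at 1.9 and 1.88 FPKM in the other Control CM libraries.

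**Figure D3:**
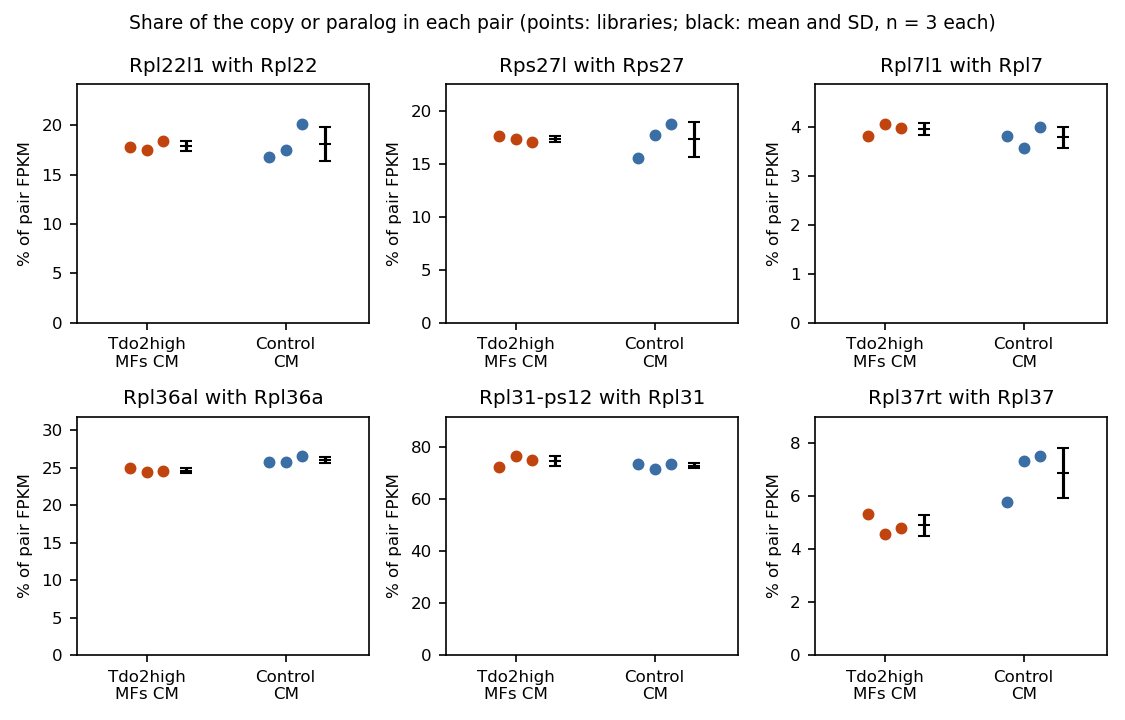
Share of the paralog or retrocopy in the summed FPKM of its pair (y axis, percent) in the 3 Tdo2high MFs CM libraries (orange, left) and the 3 Control CM libraries (blue, right), with the mean and SD in black. The groups overlap for Rpl22l1, Rps27l, Rpl7l1 and Rpl31-ps12, and stand apart for Rpl36al and Rpl37rt.

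The Control CM libraries differed among themselves in ribosomal protein mRNA more than the Tdo2high MFs CM libraries did. The median deviation of the 80 genes from their own means was 0.0102, -0.003 and 0.01 (log2) in the Tdo2high MFs CM libraries, against -0.0353, 0.0513 and -0.0392 in the Control CM libraries. Control CM replicate 2 had the highest of the 3 Control CM values in 63 of the 80 genes, and the highest of all 6 libraries in 37. Its total FPKM was also the highest of the 6, at 447415, against 438603 to 445209 in the others. Without Control CM replicate 2, the median log2 fold change of the 80 genes was 0.04, 2 genes rose (Rpl23 and Rpl37a) and 0 fell by limma. Without the other libraries in turn the median ran from 0.0035 to 0.02. Several genes of negative log2 fold change came nearer to 0 without that library, as Rpl19 did at -0.03, Rpl18 at -0.05, Rpsa and Rps16 at -0.01 and Rps6 at -0.09.

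**Figure D4:**
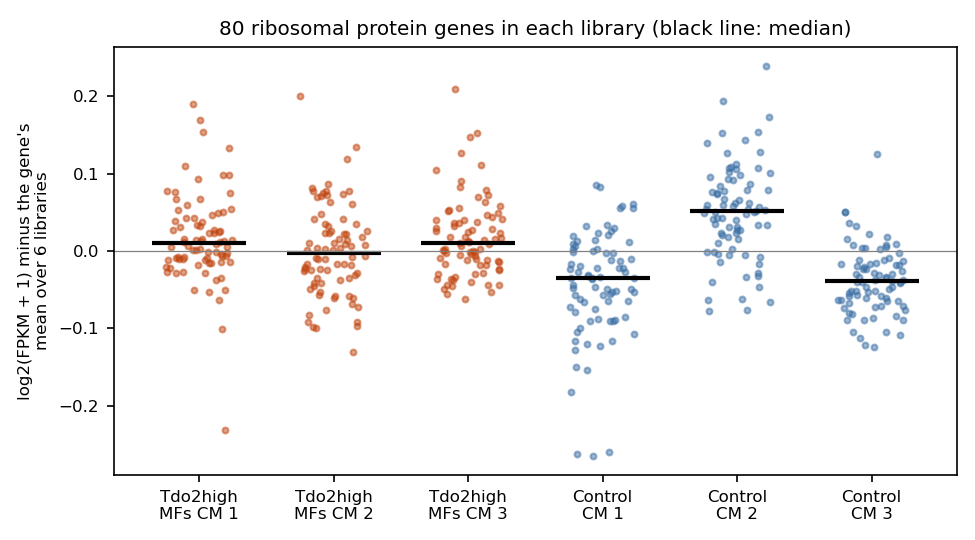
Deviation of each of the 80 ribosomal protein genes from its mean over the 6 libraries (y axis, log2(FPKM + 1)) in the 3 Tdo2high MFs CM libraries (orange, left) and the 3 Control CM libraries (blue, right); black lines are medians. Control CM replicate 2 sits highest, at a median of 0.0513, and Control CM replicates 1 and 3 lowest.

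Transcript length, which is short in this family and sets how FPKM is scaled, was set beside the changes. The 27 genes with the shortest transcripts (median GENCODE length of 367.5 to 599.5 bases) had a median log2 fold change of 0.02, with 19 above 0 and 0 called. The middle 27 had -0.0028 with 1 call, and the longest 26 had 0.02 with 1 call. Among all 372 tested genes of 367.5 to 599.5 bases the median was 0.0037 and 11.3% were called.

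Genes that make or use ribosomes were counted in lists chosen with earlier results of these data known, to be read beside the 3.35% of all genes tested that rose and the 4.06% that fell. Fau, which encodes a small subunit protein fused to a ubiquitin-like protein, and Rack1, a scaffold on the small subunit, did not pass, at log2 fold changes of -0.08 and -0.09. None of 15 tested genes of RNA polymerase I, which transcribes ribosomal RNA, passed (median -0.03). Of 54 genes for ribosomal RNA processing and ribosome assembly, 1 rose and 2 fell, with a median of -0.0069. The one that rose was Nop10, a part of the H/ACA particle that guides pseudouridylation. It had 52.51, 54.17 and 50.12 FPKM with Tdo2high MFs CM, against 44.91, 46.46 and 43.57 with Control CM, and the groups did not overlap. Its log2 fold change was 0.21 ± 0.04 (SE; adjusted p = 0.00897 by limma), and the call held in all 17 alternatives, at adjusted p = 0.0062 to 0.041 by limma.

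The 2 that fell were Nop2, a methyltransferase of the large ribosomal RNA (log2 fold change -0.15), and Sbds, which releases the anti-association factor Eif6 from new large subunits (-0.13). Their calls ended in 5 and 7 of 17 alternatives. Of 7 chaperones of ribosomal proteins, Heatr3, known in yeast and human cells as a partner of Rpl5 and Rpl11, fell (-0.15; adjusted p = 0.0467 by limma). In 11 of 17 alternatives Heatr3 no longer passed, every fit without 1 library included (adjusted p = 0.0644 to 0.151 by limma).

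Of 18 mRNAs of translation and other factors that are known to carry a TOP motif, 1 rose and 0 fell, with a median of -0.0041. The one that rose was the splicing factor Hnrnpa1 (0.16; adjusted p = 0.044 by limma), whose call ended in 10 of 17 alternatives. Of 15 genes of growth control around mTOR and Myc, 1 fell and 0 rose. It was Larp1, the TOP mRNA-binding protein, with 51.2, 52.9 and 52.15 FPKM in Tdo2high MFs CM cells, against 57.41, 55.55 and 57.42 FPKM in Control CM cells. The groups did not overlap, at a log2 fold change of -0.12 ± 0.03 (SE; adjusted p = 0.0313 by limma). The call of Larp1 ended in 9 of 17 alternatives, 5 of them fits without 1 library (adjusted p up to 0.0994 by limma); it held without Control CM replicate 2.

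Of 9 genes of ribosome quality control, which deals with stalled or collided ribosomes, 2 fell and 0 rose, beside 4.06% lower and 3.35% higher over all genes tested. The median log2 fold change of the 9 was -0.03. In Nemf and Map3k20 the groups stood apart in the higher direction (log2 fold changes 0.13 and 0.05), but neither passed (adjusted p = 0.0795 and 0.442 by limma). Zfp598, the ubiquitin ligase that marks collided ribosomes, had 16.37, 15.11 and 15.58 FPKM with Tdo2high MFs CM, against 18.58, 17.07 and 18.61 with Control CM. Gcn1, which activates the kinase Gcn2 on stalled ribosomes, had 20.71, 19.99 and 21.21 FPKM with Tdo2high MFs CM, against 24.28, 22.44 and 24.47 with Control CM. In neither gene did the groups overlap, and both had a log2 fold change of -0.19 (adjusted p = 0.032 for Zfp598 and 0.024 for Gcn1 by limma). Each was lowest, within its group, in Tdo2high MFs CM replicate 2 and Control CM replicate 2. Their calls ended in 7 and 6 of 17 alternatives, 4 of them in each case fits without 1 library (adjusted p up to 0.11 for Zfp598 and 0.0849 for Gcn1 by limma).

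The libraries carried the keratins Krt8 and Krt18 but not the epithelial markers Epcam, Cdh1 and Krt14, which did not exceed 0.11 FPKM. Krt7 was below 1 FPKM as well. Fibroblast markers numbered 5, and 3 of these stayed below 1 FPKM throughout; the collagen gene Col1a1 did not exceed 0.12 FPKM. The summed fibroblast markers ranged from 57.6 to 59.2 FPKM with Tdo2high MFs CM, against 57.3 to 58.1 with Control CM, almost all of it from Pdgfra and Dcn. Of these, Pdgfra rose (0.17) and Dcn fell (-0.48) by limma; their part in the results was not tested. All 3 myeloid and both endothelial markers in the table were below 1 FPKM in every library.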

How the data were processed

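Polyadenylated RNA of 6 samples was copied with random hexamers and sequenced at BGI, per the labels' protocols. The authors deposited 1 table of FPKM per gene, per the file headers, rounded to 2 decimals; the build was GRCm38 per the submitters' processing notes, and the aligner and quantifier were not given in the sources used. Low values did not resolve into whole reads (mean distance to a whole multiple 0.293 over 2894 values, where evenly spread values give 0.25), so depth is unknown and no counting interval is given.

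Genes with at least 1 FPKM in at least 3 libraries were tested as log2(FPKM + 1) with limma 3.58.1 in R 4.3.3 (two-sided, with an intensity trend and without a replicate block). Benjamini-Hochberg adjustment covered all 10804, at a threshold of 0.05. Fold changes on this scale understate those of low genes. Ribosomal protein genes were read from that fit; no test was made over the list. The fit was tested on simulated data. Groups come from the sample titles. Lengths are medians over GENCODE M21 protein-coding transcripts. Figures used matplotlib 3.10.9.

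The ribosomal protein genes, other lists and the naming rule were chosen with earlier results of these data known. The rule named called members, the 4 highest and 4 lowest per subunit, the most and least abundant, stalk and 5S genes and paralogs, and up to 3 called genes per other list; other genes were named after their values were seen. Alternatives were other pseudocounts, filters, scalings, variance models, a replicate block, leaving out each library, and an added GC and length correction. Some genes that the rule names are not reported here.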

Additional observations from a re-analysis of the deposited data

How the results depend on the processing

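The count of 2 called ribosomal protein genes became 0 with no filter on low values and 0 with no intensity trend, 1 under TPM scaling and 9 under quantile normalization, and ran from 0 to 2 without 1 library. Under quantile normalization 2 rose (Rpl23, Rpl37a) and 7 fell (among them Rpl10, Rpl18, Rpl19, Rpl27, Rpl8 and Rps3a1), and the median of the 80 genes was -0.0091; the cause was not tested. TPM scaling gave a median of 0.0019 and the median of ratios 0.03. With the replicate number as a block 1 ribosomal protein gene was called, Rpl23. Same-numbered samples did not deviate together (r = -0.02, -0.03 and 0.02 over genes for numbers 1, 2 and 3), so the numbers were not taken as pairs. Over all genes 801 calls became 394 with no filter and 525 with no intensity trend, and 395 to 559 without 1 library. Over the 36 ribosomal protein genes of the naming rule, 15 calls ended, all of Rpl21 and Rpl23, and 36 of 612 alternative values turned direction; some alternatives leave the fold change as it is by construction. Quantile normalization turned Rpl10 (-0.149, then called lower), Rpl12 (-0.026), Rpl23a (-0.018), Rpl3 (-0.017), Rpl36a (-0.013), Rplp1 (-0.0099) and Rps27 (-0.037). TPM scaling turned Rpl22l1 (-0.0041), Rpl3 (-0.0054), Rplp1 (-0.0028) and Rps27 (-0.00044), and the median of ratios Rpl7 (0.0097). The GC and length correction turned Rpl22l1 (-0.025), Rpl3 (-0.0079), Rpl36a (-0.018), Rps27 (-0.017) and Rps27l (-0.018). Without 1 library the log2 fold change ran on both sides of 0 in these genes: Rpl11 from -0.046 to 0.018, Rpl22 from -0.0071 to 0.046, Rpl22l1 from -0.051 to 0.070, Rpl3 from -0.022 to 0.023, Rpl36a from -0.026 to 0.045, Rpl41 from -0.073 to 0.049, Rpl7 from -0.038 to 0.033, Rplp0 from -0.041 to 0.024, Rplp1 from -0.039 to 0.0795, Rps27 from -0.033 to 0.054 and Rps27l from -0.032 to 0.045. The cause was not tested. The median over the 80 genes, the difference between the subunits and the paralog shares moved by less than the spread between libraries under the alternatives run. Both calls held under a correction for GC and length that was chosen after seeing the data. Precision rests on 3 libraries a group.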
